A study of Mus musculus with 6 samples.

Results

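The genes described here encode the extracellular side of Wnt signalling: the Wnt ligands, the enzymes and carriers that release them, their frizzled and Lrp receptors, the R-spondins, and the secreted antagonists. They were taken by name from the array's annotation (Wnt, Fzd, Sfrp, Dkk and Rspo followed by a number, with Lrp5, Lrp6, Wls, Porcn, Wif1 and Notum), each at its brightest probe. This gave 48 genes of 19057 with a probe, of which 31 passed the filter on low signal and 17 did not. The name rule also takes in Fzd10os, a transcript from the strand opposite Fzd10 and no receptor. The samples were whole colon from Setd2 KO mice (3 samples, KO 1 to KO 3) and from control mice (3 samples, control 1 to control 3), all on the C57BL/6 background and 6 weeks old. The labels give neither the allele nor the Cre line, nor the cells in which Setd2 was lost, and they do not state 1 animal per sample, so the p-values here speak only of variation among these 6 samples, which may be technical. Setd2 encodes the enzyme that trimethylates lysine 36 of histone H3, and the series asks which genes are misregulated in colon when it is disrupted.

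Wnt proteins are lipid-modified by Porcn, carried to the cell surface by Wls and bound there by a frizzled receptor together with Lrp5 or Lrp6, which stabilises beta-catenin in the receiving cell. In the intestinal crypt this signal keeps stem cells dividing. Much of the ligand and R-spondin supply comes from stromal cells around the crypt, while R-spondins prolong receptor life and the Sfrp, Dkk, Wif1 and Notum proteins limit the signal.

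The brightest Setd2 probe had intensities of 201, 119 and 146 on the KO arrays and 374, 600 and 329 on the control arrays, with no overlap (log2 difference -1.47, SE 0.44, limma adjusted p = 0.79). Whether that probe falls inside the deletion cannot be read from the labels, which makes this a partial check of them. Colon epithelial markers were present on all arrays: the mucin Muc2 lay between 13.64 and 13.74 (log2 intensity) in KO and between 13.54 and 13.87 in control. Others were less even. Car1 had 13.4, 13.7 and 13.4 in KO and 8.9, 8.1 and 13.7 in control. Aqp8 had 11.8, 12.3 and 11.4 in KO and 11.8, 8.7 and 8.9 in control. Of the 10 epithelial markers, 7 had a higher and 3 a lower mean in KO. Control 2 stood apart, correlating with the other 5 arrays at 0.80 to 0.82 where those correlated with each other at 0.91 to 0.94, and 41.6% of its probes were at the lowest deposited value of 1, against 33.5% to 36.9% on the others. That value is called the floor below. It is 0 on the log2 scale, and values at it have no order among themselves. Without control 2 the Setd2 difference was -1.21.

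No member passed the adjusted threshold of 0.05 in limma, and neither did any of the 18918 features (0%). At an unadjusted p under 0.05 limma called 0 of the 31 members, where 4.30% of all features were called, 1.66% higher and 2.64% lower in KO. The adjusted p of the members lay between 0.94 and 0.98, and the 95% intervals of all 31 differences included 0. Groups did not overlap for 2 members, Wnt5b and Dkk3, both higher in KO. That is 6.45% of 31, against 8.68% of all features (3.38% higher and 5.31% lower in KO), so the count over both directions was no larger than the background share.

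The sequences just upstream of 3 genes on which the description below turns are shown to give their base composition. They are the 250 bases before the annotated start in RefSeq (GRCm38.p6), 5′ to 3′ on the gene's strand, with every CG dinucleotide in capitals. Fzd5 (chr1:64737751-64738000, minus strand) and Fzd7 (chr1:59481897-59482146, plus strand) encode frizzled receptors, and Wnt5b (chr6:119544348-119544597 for the first listed start and chr6:119467212-119467461 for the second, both on the minus strand) encodes a ligand.
Fzd5: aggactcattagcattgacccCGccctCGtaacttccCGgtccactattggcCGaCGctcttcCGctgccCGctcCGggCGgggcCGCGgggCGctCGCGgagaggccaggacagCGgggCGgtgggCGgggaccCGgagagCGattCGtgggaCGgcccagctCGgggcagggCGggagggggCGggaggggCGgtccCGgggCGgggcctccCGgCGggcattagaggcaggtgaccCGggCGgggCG
Fzd7: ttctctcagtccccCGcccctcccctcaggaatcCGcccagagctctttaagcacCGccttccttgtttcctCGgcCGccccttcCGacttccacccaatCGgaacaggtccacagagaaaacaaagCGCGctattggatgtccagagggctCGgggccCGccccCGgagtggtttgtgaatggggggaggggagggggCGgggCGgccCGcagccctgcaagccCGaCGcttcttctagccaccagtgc
Wnt5b, first start: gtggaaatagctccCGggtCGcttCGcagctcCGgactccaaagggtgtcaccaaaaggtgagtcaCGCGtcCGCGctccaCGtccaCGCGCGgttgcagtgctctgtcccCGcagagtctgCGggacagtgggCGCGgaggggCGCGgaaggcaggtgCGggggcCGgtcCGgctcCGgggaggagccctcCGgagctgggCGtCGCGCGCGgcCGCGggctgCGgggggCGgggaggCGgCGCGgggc
Wnt5b, second start: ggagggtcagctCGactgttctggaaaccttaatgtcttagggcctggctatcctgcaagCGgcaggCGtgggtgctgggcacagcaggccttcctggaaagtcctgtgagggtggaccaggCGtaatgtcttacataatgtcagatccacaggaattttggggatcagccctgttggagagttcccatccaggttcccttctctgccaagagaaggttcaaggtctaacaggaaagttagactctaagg
These windows hold 32, 17, 35 and 4 CG dinucleotides, in the order printed. RefSeq lists 3 starts for Wnt5b, and the window of the one not printed (chr6:119449387-119449636) holds 7. RefSeq starts were given for 29 of the 48 members, 32 starts in all, with a median of 22 CG dinucleotides and a range of 4 to 48. The median was 10 over 21262 starts of protein-coding genes, of which 19.5% had at least 22. Because 22 is the members' own median, the share of member starts at or above it (53.1%) is fixed by that choice and is no comparison. The TCF/LEF core CTTTGA, searched on both strands, occurred in 4 of the 32 member windows (12.5%) and in 12.7% of the windows of protein-coding genes. Among the windows of these 3 genes it occurred once, in the Wnt5b window not printed, and not in the 4 windows printed. A match or its absence describes only these letters in this window.

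A sign of how low much of this family's signal was comes from genes of another tissue. Of 1246 odorant and pheromone receptor genes on the array, at their brightest probes, 95% had a mean log2 intensity below 2.33. By this measure 19 of the 48 members lay above the receptors' 95th percentile: 4 Wnt ligands of 19, both secretion genes, 9 of 12 receptors, 1 of 4 R-spondins and 3 of 10 antagonists. Probes differ in their binding, so levels of different genes are not ranked against each other here. In bulk colon, fewer cells of a type and less RNA per cell cannot be told apart.

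Among the ligands, Wnt5b had the largest difference of the 31 members above the filter. Its log2 intensities were 3.75, 4.15 and 4.22 in KO and 3.40, 0 and 3.19 in control. All 3 KO arrays were above all 3 control arrays, and control 2 was at the floor. The difference was 1.84 (SE 0.94, 95% interval -0.41 to 4.10, limma unadjusted p = 0.093), and without control 2 it was 0.75. Wnt5a, a ligand known for signalling apart from beta-catenin, had 4.80, 6.51 and 5.53 in KO and 4.61, 4.57 and 6.10 in control. Control 3 lay inside the KO range, so the groups overlapped (difference 0.52, SE 0.66). The difference was 0.07 without KO 2 and 1.02 without control 3. Its second kept probe was dimmer and had a difference of 1.61, with control 2 at the floor.

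Wnt4 had 3.51, 4.42 and 3.85 in KO and 3.77, 1.07 and 4.43 in control. The positive difference (0.84, SE 0.90) rested on control 2, without which it was -0.17. A second, dimmer Wnt4 probe went the other way without overlap: it was at 0, 0.45 and 0 in KO and at 1.92, 2.82 and 2.13 in control. The mean of that second probe (1.22) was below the odorant receptors' 95th percentile. Its KO mean was below the filter value, so it passed only through its control values and is no firm counter-reading. Because the brightest probe itself changed sign without control 2, no direction can be given for Wnt4. Wnt16 had 2.11, 2.88 and 1.34 in KO and 0, 1.90 and 0.96 in control (difference 1.15, SE 0.65), and its second probe had a difference of -0.69. The mean of its brightest probe (1.53) was below the odorant receptors' 95th percentile, and its control mean (0.95) was just below the filter value. Wnt6, Wnt2b, Wnt3a and Wnt7b also passed the filter, with differences from -0.44 (Wnt7b) to 0.98 (Wnt6). Each had at least 1 control array at the floor in its brightest probe. Wnt2b, Wnt3a and Wnt7b had 1 KO array at the floor as well, and their means were below the odorant receptors' 95th percentile. The control mean of Wnt2b (0.77) was below the filter value.

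The other 11 ligands (Wnt1, Wnt2, Wnt3, Wnt7a, Wnt8a, Wnt8b, Wnt9a, Wnt9b, Wnt10a, Wnt10b and Wnt11) were below the filter. Wnt3, the ligand of Paneth cells in mouse small intestine, had 0, 2.44 and 2.15 in KO, and every control array was at the floor. Wnt10b measured 0.98, 2.36 and 1.40 in KO and 0, 0 and 0.87 in control. There are 4 pairs of ligand genes that are direct neighbours among protein-coding genes in RefSeq: Wnt6 with Wnt10a, Wnt3a with Wnt9a, Wnt9b with Wnt3, and Wnt10b with Wnt1. Wnt6 and Wnt3a passed the filter, and the other 6 of these 8 genes did not.

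**Figure D1:**
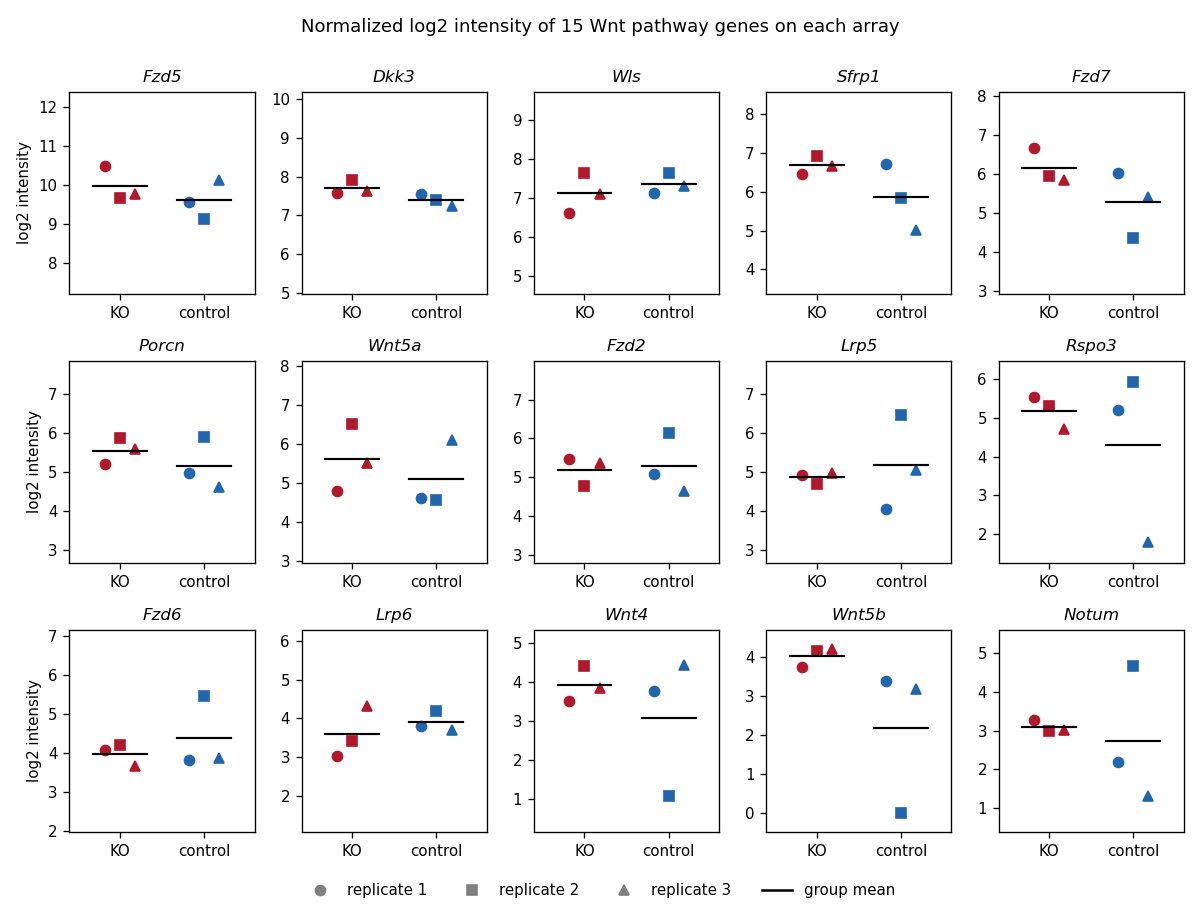
Normalized log2 intensity (vertical axis, each panel spanning the same number of log2 units) of the 15 members with the highest mean, with KO to the left of control; each symbol is 1 array and the line is the group mean. Groups do not overlap for Dkk3 and Wnt5b, control 3 is far below the other arrays for Rspo3 (1.80), and control 2 is far below them for Wnt4 (1.07) and Wnt5b (0).

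Of the secretion genes, Porcn, the acyltransferase that attaches the lipid, had 5.19, 5.88 and 5.58 in KO and 4.98, 5.89 and 4.62 in control. The groups overlapped through control 2 (difference 0.39, SE 0.48), and the difference was 0.75 without control 2 and 0.11 without control 3. Wls, the carrier, had 6.61, 7.66 and 7.10 in KO and 7.14, 7.66 and 7.32 in control at its brightest probe (difference -0.25, SE 0.44). It was measured by 5 kept probes, of which 3 had a lower and 2 a higher mean in KO, with differences from -0.43 to 0.53. Of its 3 bright probes, 2 had their highest control value on control 2 (7.66 and 7.86), and the third had its lowest value there (6.31).

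The frizzled receptors bind Wnt through a cysteine-rich domain. Fzd7, which crypt stem cells of the mouse use, had 6.67, 5.94 and 5.86 in KO and 6.04, 4.36 and 5.41 in control. Control 1 reached into the KO range while control 2 was lowest. The difference was 0.88 (SE 0.56, 95% interval -0.46 to 2.22) with 1 probe, and without control 2 it was 0.43. Fzd5, a receptor of the intestinal epithelium, had 10.48, 9.68 and 9.77 in KO and 9.58, 9.12 and 10.12 in control. The groups overlapped (difference 0.37, SE 0.46), and a second, dimmer probe differed by -0.02. The difference of the brightest probe was 0.12 without KO 1, 0.13 without control 2 and 0.63 without control 3.

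Fzd2 had 5.46, 4.78 and 5.36 in KO and 5.08, 6.14 and 4.66 in control (difference -0.09, SE 0.52). Fzd6 had 4.06, 4.20 and 3.67 in KO and 3.82, 5.45 and 3.87 in control (difference -0.41, SE 0.56). Fzd8 had 3.47, 0 and 2.81 in KO and 2.64, 3.61 and 3.96 in control (difference -1.31, SE 0.96). For Fzd2 and Fzd6 the highest array was control 2, and without it their differences were 0.33 and 0.13. For Fzd8 most of the difference came from KO 2 at the floor, and without KO 2 it was -0.26. Fzd1, Fzd3, Fzd9 and Fzd10 passed the filter with differences from -0.21 to 0.46, and Fzd4 did not pass. Fzd10os had 0, 1.14 and 2.05 in KO and 2.18, 2.69 and 0.62 in control (difference -0.77, SE 0.76), and its second probe differed by 0.70. The mean of its brightest probe (1.45) was below the odorant receptors' 95th percentile.

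The co-receptors, which carry the signal to Axin, overlapped between groups. Lrp5 had 4.93, 4.68 and 4.97 in KO and 4.05, 6.46 and 5.04 in control (difference -0.32, SE 0.66). Control 2 was the highest array, and without it the difference was 0.32. Lrp6 had 3.03, 3.41 and 4.33 in KO and 3.80, 4.19 and 3.70 in control (difference -0.31, SE 0.48). A dimmer Lrp6 probe differed by 1.61, with control 2 at the floor. Of the 9 receptors above the odorant receptor level, 3 had a higher mean in KO with all arrays and 7 without control 2.

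R-spondins bind Lgr receptors and protect frizzled receptors from removal. Rspo3, supplied by stromal cells near the crypt base in mice, had 5.54, 5.29 and 4.70 in KO and 5.19, 5.93 and 1.80 in control. KO 1 and KO 2 lay between control 1 and control 2, KO 3 just below both, and control 3 far below all others. The difference (0.87, SE 1.08) rested on control 3, without which it was -0.38, and without control 2 it was 1.68. The second Rspo3 probe differed by -0.08. Rspo4 was near the floor, with a difference of 0.52, and Rspo1 and Rspo2 were below the filter, Rspo2 at the floor on all arrays but control 1.

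The Sfrp proteins, which carry a frizzled-like domain and bind Wnt outside the cell, had differences of both signs. Sfrp1 had 6.45, 6.92 and 6.67 in KO and 6.72, 5.85 and 5.01 in control at its brightest probe. Control 1 lay inside the KO range and control 3 was lowest (difference 0.82, SE 0.53, 95% interval -0.46 to 2.09). The second Sfrp1 probe had 4.95, 4.84 and 4.76 in KO and 4.38, 3.16 and 0.45 in control, without overlap and with a difference of 2.19. Without control 3 the difference of the brightest probe was 0.39.

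Sfrp2 had 2.46, 2.97 and 1.91 in KO and 0.06, 2.30 and 0.32 in control. Control 2 lay inside the KO range, while control 1 and control 3 were near the floor. The difference was 1.55 (SE 0.70, 95% interval -0.13 to 3.23, limma unadjusted p = 0.065), and without control 2 it was 2.26. Its mean over the 6 arrays (1.67) was below the odorant receptors' 95th percentile, and its control mean (0.89) was below the filter value of 0.96. Sfrp5 had 2.79, 2.30 and 0 in KO and 2.05, 4.49 and 0.87 in control (difference -0.77, SE 1.13), and its mean (2.08) was also below that percentile. Sfrp4 was at the floor on all arrays but control 1.

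Dkk1, Dkk2 and Dkk4 block Lrp5 and Lrp6, whereas Dkk3 is a divergent relative not known for that action. Dkk3 had 7.57, 7.92 and 7.64 in KO and 7.55, 7.40 and 7.23 in control at its brightest probe. The groups did not overlap, although KO 1 and control 1 were nearly equal, and the difference was 0.32 (SE 0.37, 95% interval -0.56 to 1.20). A second probe of like brightness had 7.01, 7.38 and 7.58 in KO and 7.08, 8.10 and 6.91 in control, with overlap and a difference of -0.04. The remaining kept probe was dim and had 2.93, 2.79 and 2.01 in KO and 0.24, 0 and 1.76 in control, without overlap and with a difference of 1.91. The mean of this dim probe (1.62) was below the odorant receptors' 95th percentile, and its control mean was below the filter value. It was thus kept through its KO values, and its lack of overlap is not counted as a second reading. The groups were apart in the brightest Dkk3 probe and not in the second bright one.

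Dkk4, itself a target of Wnt signalling, had 1.94, 0 and 0 in KO and 2.82, 1.66 and 2.25 in control. Its difference of -1.59 (SE 0.67, 95% interval -3.20 to 0.015) had the smallest unadjusted limma p of the members, 0.052. KO 2 and KO 3 were at the floor. The mean of Dkk4 (1.44) was below the odorant receptors' 95th percentile. Its KO mean (0.65) was below the filter value, so it passed only through its control values. Dkk1 and Dkk2 were below the filter. Wif1, which binds Wnt directly, had 1.92, 2.20 and 2.77 in KO and 0, 0 and 2.77 in control (difference 1.38, SE 0.83), with control 3 at the top of the KO range. The mean of Wif1 (1.61) was also below that percentile, and its control mean (0.92) was below the filter value. Notum, the esterase that strips the lipid from Wnt, had 3.26, 3.00 and 3.02 in KO and 2.19, 4.66 and 1.32 in control. The KO arrays lay close together between the control arrays (difference 0.37, SE 0.86), which was 1.34 without control 2 and -0.33 without control 3.

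**Figure D2:**
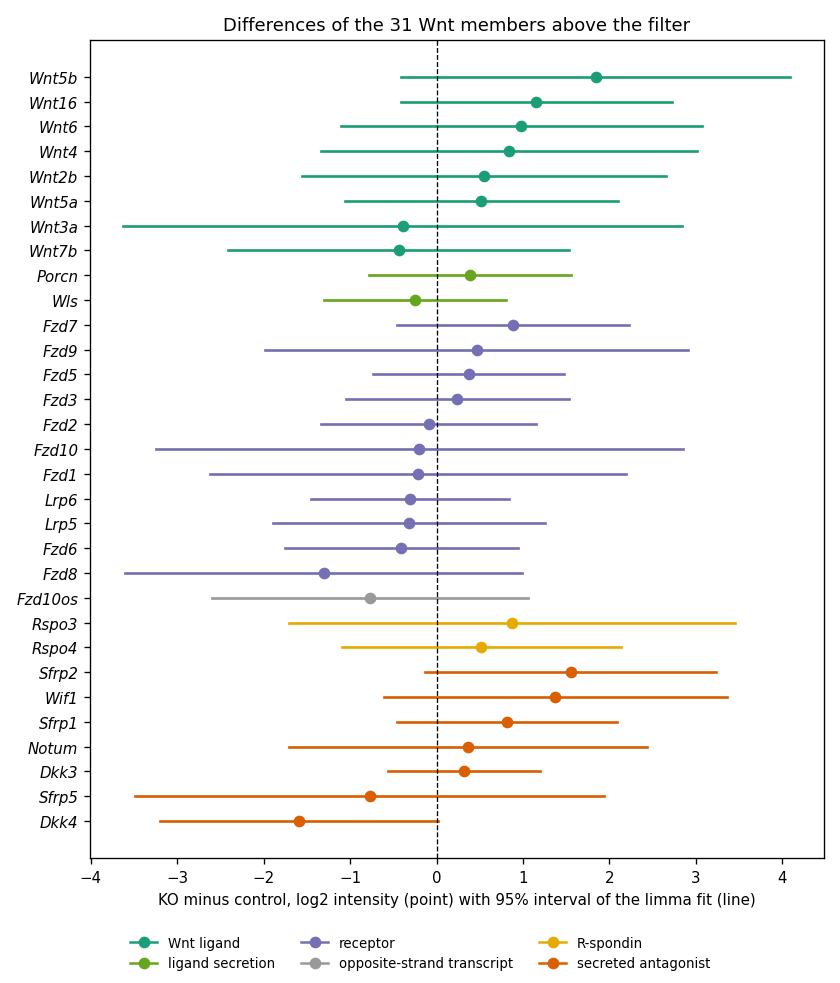
KO minus control difference in log2 intensity (horizontal axis) for the 31 members above the filter, grouped by role, with the 95% interval of the limma fit as a line. All intervals include 0, the one for Dkk4 by 0.015.

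Several genes had more than 1 probe above the filter, which gives a second reading of the same RNA. Of these 15 members, 6 had all kept probes on 1 side of 0: Fzd10, Fzd6 and Wnt7b with a lower mean in KO, and Sfrp1, Wnt5a and Wnt6 with a higher one. The other 9 had probes on both sides, among them Wls, Wnt4, Rspo3 and Dkk3. For Fzd3 the brightest probe differed by 0.24 and the dimmest kept probe by -1.96.

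**Figure D3:**
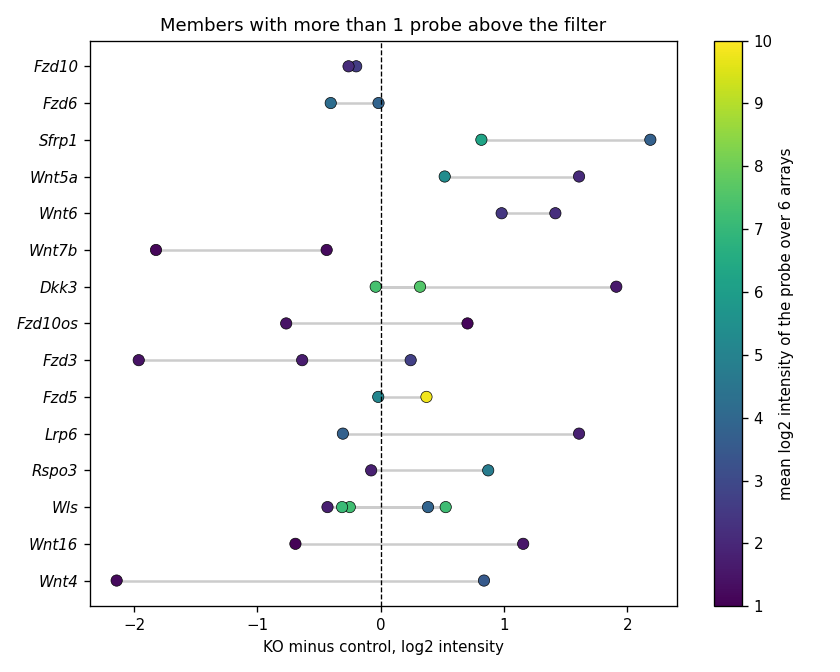
KO minus control difference in log2 intensity (horizontal axis) of each kept probe of the 15 members with more than 1 such probe, coloured by the probe's mean log2 intensity over the 6 arrays. The probes of 6 members, at the top, lie on 1 side of 0 and those of the other 9 on both, with Wnt4 spanning -2.14 to 0.84.

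Members varied more among control than among KO arrays. The median SD of the 31 members was 0.53 in KO and 1.08 in control, and 0.70 between control 1 and control 3 alone. Over all features the medians were 0.48 in KO and 0.89 in control, and 0.40 without control 2. Control 2 was the highest or the lowest of the 6 arrays for 61.3% of the members, against 65.3% of all features. Control 3 was an extreme for 35.5% of the members, 11 of 31, against 21.5% of all features. It was lowest for Sfrp1, Rspo3, Dkk3 and Notum among others.

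Markers of the cells known to make many of these proteins differed between arrays too. Of 12 smooth muscle markers 11 were measured, 10 of them with a higher mean in KO (Synpo2 was below the filter), and their summed intensity lay between 34810 and 50970 in KO and between 26250 and 41010 in control. Their differences were uneven, with a median of 0.25, and of 0.65 without control 2. Actg2 and Des differed by 0.008 and 0.02, and Tagln by -0.03. The largest, Myl9 (2.15) and Myh11 (2.09), were 0.71 and 0.70 without control 2. All 10 fibroblast and matrix markers were measured, 5 higher and 5 lower, with sums of 2154 to 3493 in KO and 2034 to 4292 in control. For fibroblasts of the crypt base and under the epithelium 6 of 7 were measured (Foxl1 was below the filter), 3 higher and 3 lower, with sums of 3008 to 3113 in KO and 2064 to 3575 in control. All 10 colon epithelial markers were measured, 7 higher in KO, with sums of 48430 to 53350 in KO and 34270 to 51060 in control. Of the lists for other cells and organs, 6 of 7 T and NK cell markers were measured, 5 of them lower in KO. At an unadjusted limma p under 0.05, 3 were lower, where 2.64% of all features were. Their sums were 214 to 258 in KO and 424 to 594 in control, which do not overlap. No background share was computed for sums of lists. Of single features, 5.31% were lower in KO without overlap. Beside the counts of direction of every list here, 44.6% of all features had a difference above 0. Of 10 pancreatic acinar markers 9 were measured, all with a lower mean in KO, with sums of 4223 to 24590 in KO and 6244 to 76120 in control. All 8 small intestinal markers were measured, 7 higher in KO, with sums of 281 to 8925 in KO, the highest on KO 1, and 101 to 628 in control. Sums overlapped for the remaining lists. Of endothelial markers 2 were higher and 6 lower in KO, and of enteric neuron and glia markers 3 and 2. The counts were 0 and 3 for B and plasma cells and 1 and 4 for adipose tissue. Of macrophage markers 4 were higher and 1 lower, with a median difference of 0.68, and of -0.31 without control 2. The part of these cells in the members' values was not tested.

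With each array left out in turn, the differences ran from 1.13 to 2.26 for Sfrp2, from 0.39 to 1.25 for Sfrp1, from 0.92 to 2.30 for Wif1 and from 0.68 to 1.63 for Wnt16. They ran from -2.24 to -1.27 for Dkk4, from -1.37 to -0.24 for Fzd10os and from -0.68 to -0.03 for Lrp6. Those of Wls, Fzd2, Fzd6, Lrp5, Rspo3, Wnt4, Notum and Sfrp5 included both signs.

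**Figure D4:**
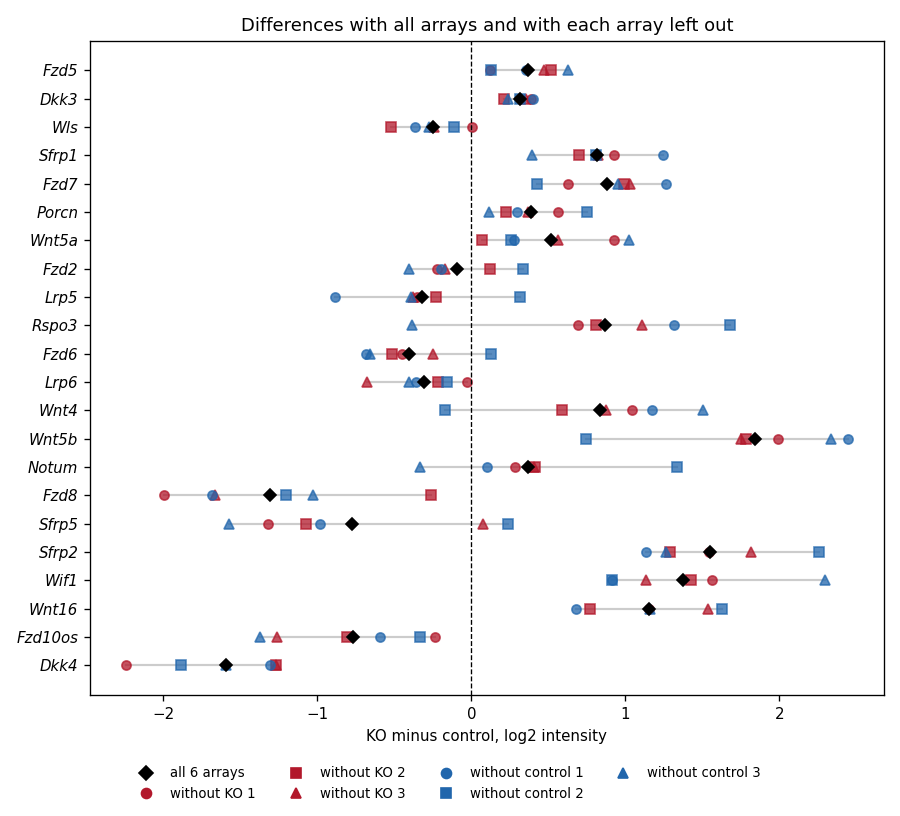
KO minus control difference in log2 intensity (horizontal axis) of 22 members with all 6 arrays (diamond) and with each array left out in turn (other symbols). For Rspo3 the points run from -0.38 without control 3 to 1.68 without control 2, and for Dkk3 from 0.21 to 0.40.

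Of the 31 members above the filter, 18 had a higher and 13 a lower mean in KO, with a median difference of 0.37. Over all features the median was -0.09, and 44.6% had a difference above 0. Without control 2, 23 of 31 members and 49.9% of all features were higher. Over all 48 members at their brightest probes, 25 were higher and 23 lower, with a median of 0.18. With an offset of 16 added to every intensity, which damps values near the floor, the median of the 31 was 0.06. By role, 6 of 8 ligands, 4 of 11 receptors, 1 of 2 secretion genes, both R-spondins and 5 of 7 antagonists above the filter had a higher mean in KO. Among the higher ones, Wnt16, Wnt2b, Sfrp2 and Wif1 had control means below the filter value (0.95, 0.77, 0.89 and 0.92). Among the lower ones, Dkk4 had a KO mean below it (0.65). These genes passed only through the group where they were high, so the counts of direction among the 31 depend in part on the filter.

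The remainder of the pathway was read from 3 lists, in which 0 genes passed the adjusted threshold in limma. Of 25 genes for the receptor complex and its regulators 19 were measured, 9 with a higher and 10 with a lower KO mean. Their median was -0.11, and 0.08 without control 2, and none had an unadjusted p under 0.05. The members with the smallest p were Sostdc1 (0.85, SE 0.54), a secreted antagonist, Tpbg (0.81, SE 0.57), which inhibits Wnt signalling at the membrane, the receptor-like kinase Ptk7 (0.64, SE 0.47) and the cadherin Celsr1 (-0.66, SE 0.55). Lgr4, Lgr6, Znrf3, Ror1 and Ndp were below the filter. Of 26 genes of the intracellular chain 24 were measured, 13 higher and 11 lower, with a median of 0.16 and again none at an unadjusted p under 0.05. Dvl3, which relays the signal from frizzled, had 2.16, 1.94 and 2.70 in KO and 1.46, 0 and 1.72 in control (difference 1.21, SE 0.57, and 0.68 without control 2). Apc, Gsk3b and Pygo1 differed by 1.57, 0.68 and 1.11. Without control 2, which was at the floor for Apc, their differences were 0.37, 0.36 and 1.57. Pygo1 had 0, 2.90 and 1.81 in KO and 0, 1.36 and 0 in control. Its control mean (0.45) was below the filter value, so it passed only through its KO values. The dimmer kept Apc probes differed by 1.56 and -0.70. A second Gsk3b probe, dimmer than the first, differed by 2.13, with control 2 at the floor.

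Of 20 targets commonly followed in intestinal crypts 16 were measured, 10 with a higher and 6 with a lower KO mean and a median of 0.31. The growth regulator Myc was the single gene with an unadjusted limma p under 0.05 (0.00094, adjusted p = 0.40), and none had one with an offset of 16 or a filter at the 60th percentile. Its brighter probe read 2.80, 3.15 and 1.89 in KO while every control array was at the floor, so no fold is given and the control SD of 0 behind that p is set by the floor. The probe's mean, 1.31, was below the odorant receptors' 95th percentile. The dimmer probe had 1.38, 0.17 and 0 in KO and 0, 2.00 and 1.15 in control, and the probes did not share a direction. The stem cell transcription factor Ascl2 had 5.69, 4.37 and 4.69 in KO and 5.24, 0 and 3.66 in control, with a difference of 1.95 (SE 1.31) that was 0.46 without control 2. Its dimmer kept probes differed by 0.34 and -0.28, on both sides of 0. Nkd1, a feedback inhibitor, had 5.92, 5.61 and 5.88 in KO and 5.11, 5.21 and 5.69 in control (difference 0.47, SE 0.38). Apcdd1, a membrane inhibitor of Wnt, differed by 0.92 (SE 0.87) with control 2 at the floor and by 0.05 without it, and its second kept probe differed by -0.26.

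**Figure D5:**
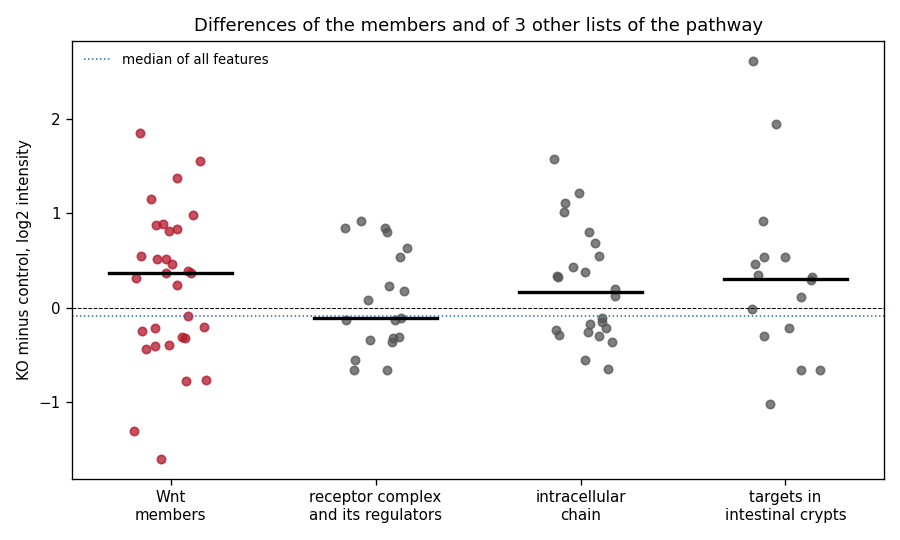
KO minus control difference in log2 intensity (vertical axis) of the 31 members and of 3 other lists of the pathway; each point is 1 gene at its brightest probe, the bar is the list's median and the dotted line the median of all 18918 features. The medians are 0.37 for the members, -0.11 for the receptor complex and its regulators, 0.16 for the intracellular chain and 0.31 for the crypt targets.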

How the data were processed

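Each of 3 KO and 3 control samples was run on 1 Illumina bead array, and the starting point was the table of linear probe intensities deposited by the authors. All arrays share 1 median (3.82) and 1 maximum (16715), and the lowest value is exactly 1. Quantile normalization gives such shared values. No software or background correction is named in the sources used here. A second table, of unnormalized signals, was not used, because its 6 sample columns match none of the samples' labels. Intensities were log2 transformed without an offset. Probes with a mean log2 above the 40th percentile (0.96) were kept, 27168 of 45281. The brightest kept probe stood for each gene, and a probe without a symbol was a feature by itself, so 18918 features were tested (14530 with a symbol). The test was limma 3.58.1 in R 4.3.3 (lmFit, eBayes, 2-sided), KO minus control on the log2 scale, and p-values were adjusted by Benjamini-Hochberg over all features, with 0.05 as the threshold. The fit was also run on simulated normal values with the same SD in both groups. These had no floor and no array that stood apart, so that run does not cover either trait of the real arrays. Symbols came from the platform annotation supplied with the data, in which 34885 probes had 1 symbol, 18 several and 10378 none. The number of arrays limits the precision.

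The genes described and the gene lists were chosen with earlier results of these data known. Values are given for the 15 members with the highest mean, the members whose groups do not overlap and the 5 per direction with the smallest p. Other pathway genes are named up to 4 per list, by smallest p. Same-numbered KO and control arrays deviated from their group means with correlations of 0.16, -0.09 and 0.04, so the numbers were not taken as pairs. The alternatives were an offset of 16, no filter and a filter at the 60th percentile, the mean over a gene's probes, centring of the arrays, trend and robust eBayes, the replicate number as a block, and leaving out each array.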

Additional observations from a re-analysis of the deposited data

How the results depend on the processing

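No member passed the adjusted threshold under any of 13 alternatives, and no feature did except without a filter on dim probes, where 11 of 29453 passed, none of them a member. The count of members at an unadjusted p under 0.05, 0 as reported, was 1 without that filter (Wnt10b), 1 with arrays centred on their median (Sfrp2) and 2 with the replicate number as a block (Sfrp2 and Dkk4), and it lay between 0 and 4 with 1 array left out. The 4 came without control 2 (Sfrp2, Wnt16, Dkk4 and Notum). Leaving it out also lowered the median control SD of all features from 0.89 to 0.40. How many of all features reached that p was not counted under any alternative, so no background share stands beside these counts. The same holds for the pathway counts that follow. The replicate block changed no adjusted call. For the other pathway genes the count, 1 as reported, was 0 with an offset of 16 and 0 with a filter at the 60th percentile, and 1 to 3 with 1 array left out. The members' median difference ran from 0.06 with the offset to 0.45 with centred arrays, and from 0.10 to 0.41 with 1 array left out. Of 22 members followed, 13 kept their direction in every alternative that gave them a value; Sfrp2, Wif1, Wnt16, Fzd10os and Dkk4 fell below the filter at the 60th percentile and have 12. Averaging over probes turned Lrp6 (0.65) and Wnt4 (-0.65), and the offset turned Notum (-0.029). With 1 array left out, the differences ran from -0.52 to 0.0074 for Wls, -0.41 to 0.33 for Fzd2, -0.89 to 0.32 for Lrp5, -0.38 to 1.68 for Rspo3, -0.69 to 0.13 for Fzd6, -0.17 to 1.51 for Wnt4, -0.33 to 1.34 for Notum and -1.57 to 0.24 for Sfrp5. Normexp background correction was not run, because the unnormalized table could not be matched to samples. The cause of these shifts was not tested.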
